A study of Mus musculus with 9 samples.

Results

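Complement is a cascade of plasma and tissue proteins that marks cells and debris for removal. In its classical branch, C1q, built from A, B and C chains, binds its target and turns on the proteases C1r and C1s, which cleave C4 and C2 to form the enzyme that splits C3, the component on which the branches of the cascade meet. The C1 inhibitor, encoded by Serping1, blocks C1r and C1s. Macrophages are a main source of C1q in tissues, while C1r, C1s, C3, C4 and the C1 inhibitor are made in large amounts by the liver and also by fibroblasts and other stromal cells. In dystrophic muscle, fibres are lost and rebuilt in the presence of macrophages and connective tissue cells. The 7 genes described here, C1qa, C1qb, C1qc, C1ra, C3, C4b and Serping1, were chosen by symbol as classical pathway components, C3 and an inhibitor, out of 15593 gene symbols in the deposited table.

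RNA came from the gastrocnemius, the large calf muscle, of mice in 3 groups of 3 libraries. One group was wildtype and was given vehicle, one was mdx and was given vehicle, and one was mdx and received subcutaneous GTx-026 at a dose of 10 mg/kg. Mice of the mdx line lack functional dystrophin through a mutation in Dmd and serve as a model for Duchenne muscular dystrophy. GTx-026 is a selective androgen receptor modulator. All 9 libraries, mdx ones included, carry the strain label C57BL/6. The sources used here state no age, sex, dosing schedule or vehicle. There was no wildtype group given GTx-026 among the samples analysed here, so each effect of the drug is an effect within mdx muscle. The library number in a name such as mdx vehicle library 2 is only a name and pairs nothing between groups. The labels state 3 animals per group without saying which animal gave which library, so p-values measure only the spread between these libraries.

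Dividing the summed values of each library by the step between its low values gave 25.1 to 38.0 M estimated reads. That sum runs over every deposited sequence record, and many genes hold several with close values. It may therefore overstate the sequencing depth, which was not given in the sources used here. Gene levels are given as CPM, the share of a library's summed values in parts per 1000000, made from the deposited values with a scaling to the trimmed centre of all genes. Fold changes are on the log2(CPM + 1) scale, where the added 1 makes differences of low genes look smaller than they are, with limma's standard error (SE) and a Benjamini-Hochberg adjusted p over 15372 genes tested, called at 0.05. The tissue label matched its markers: 11 skeletal muscle markers, among them Acta1 and Ckm, summed to between 120934 and 223244 CPM in every library. Of 9 hepatocyte markers, among them Alb and Apoa1, none had a row used here. All 11 had a log2 fold change below 0 in mdx vehicle against wildtype (median -0.43), with 0 past the threshold. In bulk tissue, fewer cells of a type and less RNA per cell cannot be told apart.

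The C1q chain genes sit side by side on chromosome 4, on the minus strand of GRCm38, in the order C1qb (chr4:136880129-136886187), C1qc (chr4:136889804-136893065) and C1qa (chr4:136895917-136898803). C1ra lies on chromosome 6 (chr6:124512405-124523443, plus strand), near C1s1 (chr6:124530345-124542359, minus strand) and the copies C1rb and C1s2. C3 (chr17:57203970-57228136) and C4b (chr17:34728380-34743882) are far apart on the minus strand of chromosome 17. Serping1 is on chromosome 2 (chr2:84765387-84775444, minus strand). Of the 50-base words in the C1ra transcripts, 48.0% also occur in C1rb transcripts, and 34.6% of those of C4b occur in C4a. The values of C1ra and C4b are thus uncertain to the extent that reads were split between copies. No such word of C1qa, C1qb, C1qc, C3 or Serping1 was found in another gene. C3 also holds the microRNA gene Mir6978 on its own strand.

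Promoter sequences, from 250 bases before to 50 bases after the annotated start, were matched for 4 of the 7 genes in RefSeq (GRCm38.p6): C1qb, C1qc, C1ra and C3. They are shown because the C1q chains followed nearly the same order of libraries while C3 did not. Each is printed 5′ to 3′ on the strand of its gene, and capitals mark matches, on either strand, to GAGGAA (a core bound by ETS factors such as the macrophage factor PU.1), TTGCNNAA (C/EBP factors of the acute-phase response), TTCNNNGAA (sites of STAT factors), the core of the interferon-stimulated response element or TATAAA (the TATA box).
C1qb, chr4:136886151-136886450: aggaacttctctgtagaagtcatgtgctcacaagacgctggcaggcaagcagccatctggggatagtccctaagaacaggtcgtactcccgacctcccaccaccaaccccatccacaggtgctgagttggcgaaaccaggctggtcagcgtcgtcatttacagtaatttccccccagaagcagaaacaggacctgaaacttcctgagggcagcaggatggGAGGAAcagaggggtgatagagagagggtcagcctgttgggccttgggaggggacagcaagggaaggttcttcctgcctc
C1qc, chr4:136892865-136893164: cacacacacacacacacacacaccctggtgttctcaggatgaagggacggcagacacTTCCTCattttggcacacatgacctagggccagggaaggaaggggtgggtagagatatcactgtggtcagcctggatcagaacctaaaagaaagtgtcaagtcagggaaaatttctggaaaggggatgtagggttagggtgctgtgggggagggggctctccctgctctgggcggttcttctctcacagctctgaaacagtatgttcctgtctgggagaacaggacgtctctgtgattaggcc
C1ra, chr6:124512371-124512670: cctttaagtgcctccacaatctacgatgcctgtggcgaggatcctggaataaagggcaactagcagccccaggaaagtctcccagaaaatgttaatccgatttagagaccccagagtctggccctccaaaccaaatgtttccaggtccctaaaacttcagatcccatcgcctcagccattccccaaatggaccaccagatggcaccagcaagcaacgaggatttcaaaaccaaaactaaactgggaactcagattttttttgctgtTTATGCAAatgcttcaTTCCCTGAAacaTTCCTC
C3, chr17:57228087-57228386: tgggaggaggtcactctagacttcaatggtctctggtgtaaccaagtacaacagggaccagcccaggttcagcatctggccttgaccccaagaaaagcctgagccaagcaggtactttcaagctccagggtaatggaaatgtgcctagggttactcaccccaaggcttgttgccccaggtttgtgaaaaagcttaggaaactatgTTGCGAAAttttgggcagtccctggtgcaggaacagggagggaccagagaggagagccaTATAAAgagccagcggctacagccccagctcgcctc

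The C1qb window held GAGGAA at bases 221 to 226, and the C1qc window held its reverse complement TTCCTC at bases 58 to 63. The C1ra window held 3 matches, all after the annotated start. They were TTATGCAA, the reverse complement of a TTGCNNAA site, at bases 267 to 274, TTCCCTGAA at bases 283 to 291, and TTCCTC at bases 295 to 300. TTCCCTGAA matched TTCNNNGAA on both strands. The C3 window held TTGCGAAA at bases 206 to 213, before the annotated start, and TATAAA at bases 265 to 270, after that start. None of the 4 windows held the interferon-stimulated response element core. Among 32851 promoters of the same length, GAGGAA was in 28.3%, TTGCNNAA in 10.8%, TTCNNNGAA in 8.30%, the interferon-stimulated core in 3.44% and TATAAA in 13.6%. A match is a match of letters only and shows no binding.

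The C1q chains were on average higher in mdx vehicle muscle than in wildtype muscle, and higher again in mdx muscle given GTx-026, but the mdx vehicle libraries spread widely and only C1qc in GTx-026 against wildtype passed the test. C1qa, the A chain, had 11.9, 15.7 and 4.66 CPM in the wildtype libraries 1 to 3, 29.6, 15.2 and 49.1 CPM in the mdx vehicle libraries, and 47.5, 33.1 and 40.9 CPM in the GTx-026 libraries. Mdx vehicle library 2 thus lay inside the wildtype range, while all 3 GTx-026 libraries lay above it.

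C1qb, the B chain, had 9.18, 22.3 and 4.58 CPM in wildtype muscle, 34.9, 14.6 and 50.6 CPM in mdx vehicle, and 48.9, 35.2 and 45.2 CPM in GTx-026 muscle. C1qc, the C chain, had 7.62, 12.1 and 4.88 CPM in wildtype muscle, 24.7, 12.1 and 36.8 CPM in mdx vehicle, and 35.3, 26.4 and 36.3 CPM in GTx-026 muscle. For each chain the highest library was mdx vehicle library 3 and the lowest was wildtype library 3. For each chain mdx vehicle library 2 was below wildtype library 2.

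The proportion of the chains varied less than their summed CPM, which ranged from 14.1 to 136 CPM. C1qa made up 31.3% to 41.4% of the summed C1q CPM over the 9 libraries, C1qb 32.0% to 44.6% and C1qc 24.1% to 34.5%. The extremes were all wildtype libraries, the group with the lowest mean levels. Among them was wildtype library 2, whose summed C1q (50.2 CPM) was above that of mdx vehicle library 2 (41.9 CPM). In the 6 mdx libraries the C1qc share stayed between 26.8% and 29.7%.

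**Figure D1:**
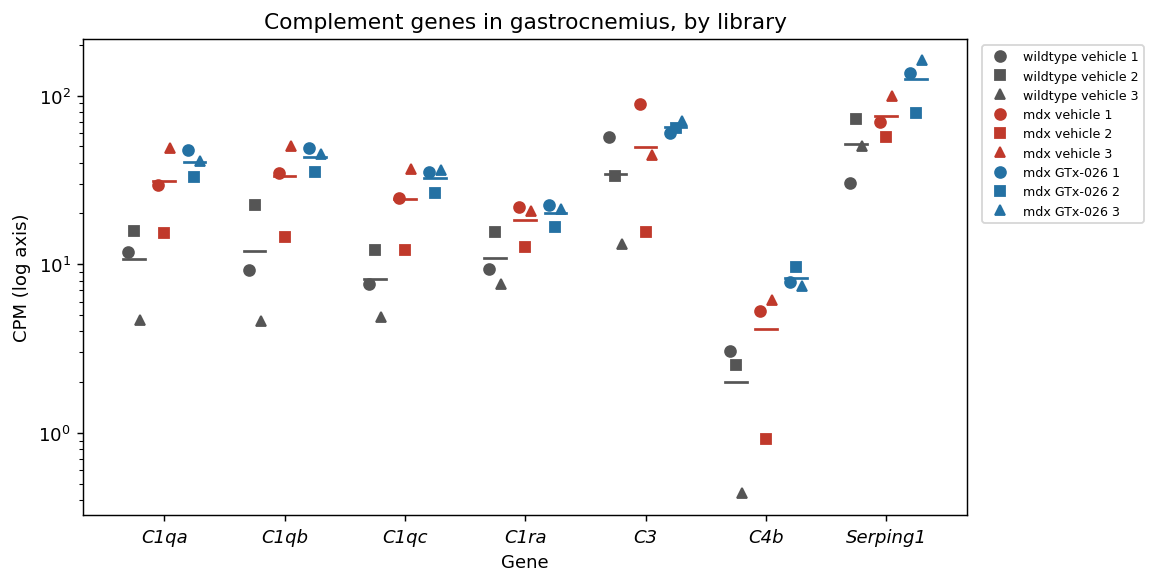
CPM of the 7 genes in each library on a log axis, with a point for each library and a line at each group's mean. The 3 GTx-026 libraries lie above the 3 wildtype libraries for every gene, while mdx vehicle library 2 (red square) lies inside the wildtype range for all 7.

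C1ra encodes the mouse C1r protease, which activates C1s within the C1 complex. It had 9.39, 15.5 and 7.60 CPM in wildtype muscle, 21.9, 12.6 and 20.7 CPM in mdx vehicle, and 22.4, 16.6 and 21.2 CPM in GTx-026 muscle. The GTx-026 libraries were above the wildtype range, and mdx vehicle library 2 was inside it. C1rb, its near copy, stayed between 1.06 and 3.84 CPM. C1s1, the mouse C1s protease gene, had group means of 36.7 ± 7.61, 56.9 ± 12.9 and 61.4 ± 7.52 CPM (SD, n = 3 each) in wildtype, mdx vehicle and GTx-026 muscle. C1s1 stood at 2.70 to 4.32 times C1ra in CPM in all 9 libraries, a ratio that is not corrected for transcript length or for the 5 records summed for C1s1. An antisense gene, Gm16567, overlaps C1s1, and whether counting used strand was not given in the sources used here.

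C4b encodes complement C4, which C1s cleaves. It was the lowest of the 7 genes and rested on few reads, with 12 estimated reads in wildtype library 3 and 303 in GTx-026 library 2 as the extremes. The deposited C4b signal in wildtype library 3 was 10.1, near the smallest signal above 0 among all records, 10. Without that library the C4b log2 fold changes against wildtype were 0.22 in mdx vehicle and 1.29 in GTx-026, in place of 0.69 and 1.75. It had 3.05, 2.53 and 0.437 CPM in wildtype muscle, 5.30, 0.914 and 6.10 CPM in mdx vehicle, and 7.86, 9.59 and 7.38 CPM in GTx-026 muscle. It was the only one of the 7 genes whose GTx-026 libraries were all above all mdx vehicle libraries. C4a, its near copy, had no row used here. C2, whose product joins C4 in the C3-splitting enzyme and which was named after its values were seen, had group means of 3.81 ± 1.78, 5.65 ± 2.99 and 6.12 ± 1.79 CPM (SD, n = 3 each) in the same order of groups.

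C3 encodes the central component, whose fragments coat targets. It had 56.8, 33.3 and 13.1 CPM in wildtype muscle, 89.3, 15.4 and 44.5 CPM in mdx vehicle, and 60.1, 64.4 and 70.4 CPM in GTx-026 muscle. Its order of libraries differed from that of C1q, with the highest value in mdx vehicle library 1 and with wildtype library 1 above mdx vehicle library 3. The spread was widest in mdx vehicle muscle, at 49.8 ± 37.2 CPM (SD, n = 3), and narrow in GTx-026 muscle, at 65.0 ± 5.18 CPM.

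Serping1 encodes the C1 inhibitor. It had 30.5, 73.0 and 50.5 CPM in wildtype muscle, 69.7, 57.0 and 100.1 CPM in mdx vehicle, and 135.4, 78.5 and 161.5 CPM in GTx-026 muscle. Its lowest library was wildtype library 1, whereas that of the 6 other genes was wildtype library 3. The C3 to Serping1 ratio in CPM was 1.86 in wildtype library 1 and 1.28 in mdx vehicle library 1, and 0.260 to 0.820 in the 7 other libraries. Serping1 and C3 are each the sum of 2 records, and those of Serping1 differed by at most 1.12-fold in any library, so that a read may have been counted in both.

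Per length of transcript, taking the highest record of each gene, the order of mean levels in wildtype muscle was Serping1 (14.4 CPM per kb), C1qb (11.1), C1qa (10.3), C1qc (6.81), C3 (3.76), C1ra (3.63) and C4b (0.373). The ranges of neighbours in that order overlapped except for C1ra, at 2.55 CPM per kb or more, above C4b, at 0.567 CPM per kb or less. In mdx vehicle muscle C1qb (30.6 CPM per kb) and C1qa (30.1) were above Serping1 (21.3) and C1qc (20.4) in mean level, with overlapping ranges. In GTx-026 muscle the mean levels were 39.6 CPM per kb for C1qb, 38.9 for C1qa, 35.5 for Serping1, 27.2 for C1qc, 6.80 for C3, 6.73 for C1ra and 1.54 for C4b. There the lowest C1qc library, at 21.9 CPM per kb, was above the highest C3 library, at 7.59 CPM per kb.

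Mdx vehicle was compared with wildtype vehicle to ask how the mutation alone moves these genes. All 7 had a log2 fold change above 0, as had 51.0% of all genes, and none passed the threshold, which 0.280% of all genes did in the higher direction. The C1q chains had the largest differences: the log2 fold change was 1.45 (SE 0.45, adjusted p = 0.253) for C1qa, 1.48 (SE 0.53, adjusted p = 0.296) for C1qb and 1.42 (SE 0.39, adjusted p = 0.196) for C1qc. C1ra stood at 0.73 (SE 0.28, adjusted p = 0.324), C4b at 0.69 (SE 0.51, adjusted p = 0.595), Serping1 at 0.60 (SE 0.36, adjusted p = 0.508) and C3 at 0.42 (SE 0.61, adjusted p = 0.786).

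At an unadjusted p under 0.05, 4 of the 7 genes were higher, C1qa, C1qb, C1qc and C1ra, beside 6.49% of all genes. It was 2, C1qa and C1qc, without wildtype library 3, mdx vehicle library 1 or mdx vehicle library 3. Of all 15372 genes, 605, 1009 and 785 were higher in those fits, against 997 with all libraries. The count was 3 of the 7 without wildtype library 1, beside 1175 of all genes. It was 5 without wildtype library 2 or mdx vehicle library 2, and under library totals or the deposited scaling. Over all genes, 690, 1397, 1403 and 1386 were higher there. With all libraries and the trimmed scaling, the groups overlapped for all 7. Of all genes, 8.09% had every mdx vehicle library above every wildtype library. Without wildtype library 2 or mdx vehicle library 2, 5 of the 7 did not overlap. Over all genes, 3464 and 5127 then did not overlap in either direction, against 2565 with all libraries. The median log2 fold change of the 7 was 0.73, against 0.01 over all genes. The value of C3 turned to -0.13 without wildtype library 3 and to -0.15 without mdx vehicle library 1, and the median of the 7 rose to 1.29 without mdx vehicle library 2. With library totals in place of the trimmed scaling, all genes shifted by a median of 0.16 and the 7 stood at 0.91. Then 2 of the 7 did not overlap, beside 2498 of all genes in either direction. Over all genes, the calls split into 48 higher and 15 lower, in place of 43 and 32.

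**Figure D2:**
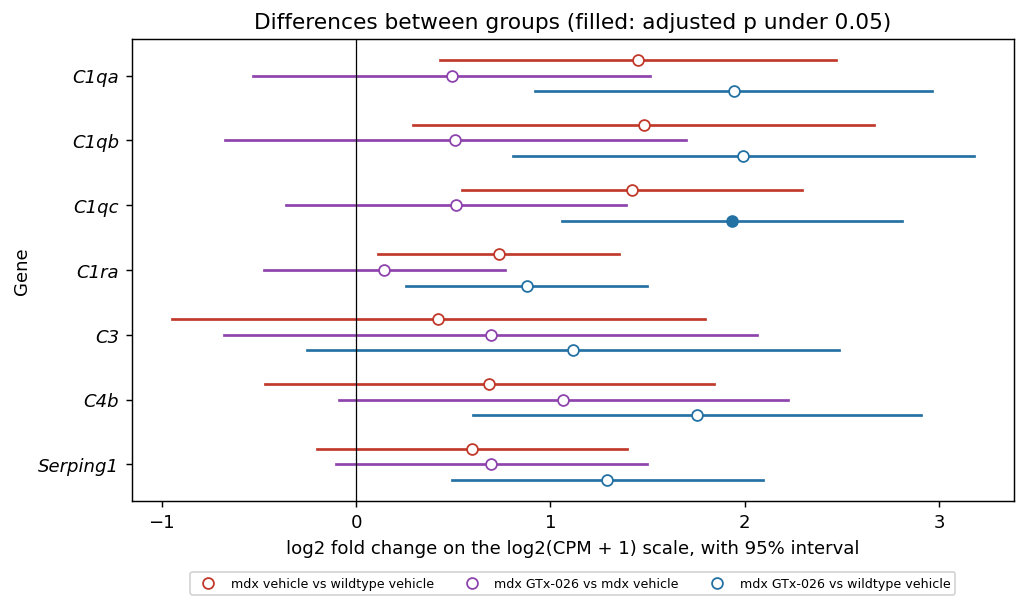
Log2 fold change of each gene on the log2(CPM + 1) scale, with its 95% interval, for the 3 comparisons. Every point lies to the right of 0, and the only filled point, which marks an adjusted p under 0.05, is C1qc in GTx-026 against wildtype.

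GTx-026 was compared with vehicle within mdx muscle to ask what the drug does to them. No gene of the 7 passed, and 0.0130% of all genes did in the higher direction, 2 in all. The log2 fold change was largest for C4b, at 1.07 with a 95% interval from -0.09 to 2.22, and was 0.70 (SE 0.36) for Serping1 and 0.69 (-0.68 to 2.06) for C3. The C1q chains stood at 0.49 (-0.53 to 1.51) for C1qa, 0.51 (-0.67 to 1.70) for C1qb and 0.52 (-0.36 to 1.39) for C1qc, and C1ra at 0.15 (-0.47 to 0.76). The interval of every gene included 0, and each also included changes of more than 0.70 upwards, so the data bounded these changes only loosely. All 7 adjusted p-values were 0.9996.

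None of the 7 had an unadjusted p under 0.05, beside 1.99% of all genes in the higher direction. But 3 had (C1qc, C4b and Serping1) without mdx vehicle library 3 and 2 (C3 and C4b) without mdx vehicle library 1. Over all genes, 596 and 260 were then higher at that level, against 306 with all libraries. Of the 7, it was 1 gene without wildtype library 1, wildtype library 3 or GTx-026 library 2, or with a pseudocount of 5. Over all genes, 323, 268, 294 and 310 were higher in those fits. All 7 were above 0, as were 51.1% of all genes, with a median of 0.52 against 0.00. C4b alone did not overlap, beside 3.68% of all genes. That count was 5 without mdx vehicle library 3, and 2 without mdx vehicle library 1 or GTx-026 library 2. Over all genes, 2843, 2351 and 2329 then did not overlap in either direction, against 1053 with all libraries. The median of 0.52 rested on mdx vehicle library 2. Without that library the median was 0.07 and C1ra turned to -0.092. The C1q chains then stood at 0.07, 0.02 and 0.10 for A, B and C, C3 at 0.04 and C4b at 0.47. Without mdx vehicle library 3 the median was 0.88.

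GTx-026 given to mdx mice was also compared with wildtype vehicle, which joins the effects of mutation and drug. C1qc rose, by 1.93 on the log2 scale (SE 0.39, adjusted p = 0.0439). The other chains had like values that did not pass, 1.94 (SE 0.45, adjusted p = 0.0756) for C1qa and 1.99 (SE 0.53, adjusted p = 0.116) for C1qb. The values were 1.75 (SE 0.51, adjusted p = 0.155) for C4b, 1.29 (SE 0.36, adjusted p = 0.129) for Serping1, 1.12 (SE 0.61, adjusted p = 0.516) for C3 and 0.88 (SE 0.28, adjusted p = 0.191) for C1ra.

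So 1 of the 7 genes passed, where 1.14% of all genes did in the higher direction. At an unadjusted p under 0.05, 6 of the 7 were higher, C3 being the exception, beside 7.55% of all genes. In all 7 every GTx-026 library was above every wildtype library, against 11.7% of all genes. The count was 6 of the 7 under library totals or the deposited scaling. Over all genes, 2956 and 2980 then did not overlap in either direction, against 3222 with the trimmed scaling. All 7 were above 0, as were 50.3% of all genes, and their median was 1.75 against 0.00. The C1qc call was lost without any 1 of the wildtype or GTx-026 libraries, with adjusted p-values of up to 0.174, and its log2 fold change then ranged from 1.65 to 2.23. Without mdx vehicle library 2, which enters this comparison only through the estimate of spread, C1qa and C4b passed as well. This comparison and that of mdx vehicle share the wildtype libraries, so their likeness is no independent result.

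In the authors' deposited table, unadjusted p-values for wildtype against GTx-026 were 0.00155 for C1qa, 0.00616 for C1qb, 0.00487 for C1qc, 0.0159 for C1ra and 0.00774 for C4b. In the authors' deposited table the 2 records of Serping1 had 0.0797 and 0.0743 for this comparison, and those of C3 had 0.129 and 0.110. The authors' deposited table gave no p under 0.05 to any record of the 7 genes for wildtype against mdx vehicle, where the lowest was 0.1195, or for mdx vehicle against GTx-026, where the lowest was 0.159.

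Measured against the wildtype mean of each gene, the median log2 difference of the 7 genes within a library was -0.02, 0.59 and -0.92 in the wildtype libraries. It was 1.52, 0.26 and 1.37 in the mdx vehicle libraries and 1.69, 1.65 and 1.72 in the GTx-026 libraries. In this median the GTx-026 libraries were thus close to each other and the mdx vehicle libraries were not. Mdx vehicle library 2 was within the range of wildtype in this measure, below wildtype library 2. The median can fall on another gene in each library. Of the 7 genes Serping1 alone had the wider range in GTx-026 muscle, at 1.47, 0.69 and 1.72, against 0.52, 0.23 and 1.04 in mdx vehicle.

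Markers of cells that are known sources of these transcripts were followed in the same libraries. The macrophage and monocyte markers with rows, 13 of 16 listed, among them Csf1r, Cd68 and Lyz2, summed to 118, 123 and 49.1 CPM in wildtype muscle, to 576, 106 and 378 CPM in mdx vehicle, and to 271, 313 and 468 CPM in GTx-026 muscle. Mdx vehicle library 2 was again at the wildtype level, and mdx vehicle library 1, the highest in the sum of these markers, was not the highest in C1q. Of the 13, Csf1r, Cd163, Mrc1, Lyz2 and Fcgr1 were highest in another library, and the rest in mdx vehicle library 1. The defining markers Adgre1, Aif1 and Ccr2 had no row used here. In mdx vehicle against wildtype, 13 of 13 markers had a log2 fold change above 0, the median being 1.43, and none past the threshold. In GTx-026 against mdx vehicle, 9 of 13 were above 0 with a median of 0.24, and in GTx-026 against wildtype 13 of 13 with a median of 1.56, none past the threshold in either.

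Per 100 CPM of these macrophage markers, summed C1q stood at 24.2, 40.7 and 28.7 CPM in wildtype muscle, at 15.5, 39.5 and 36.1 CPM in mdx vehicle, and at 48.6, 30.2 and 26.2 CPM in GTx-026 muscle. On this scale the 3 groups overlapped. The part of cell number in the C1q differences was not tested.

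Fibroblast markers, 14 of 14 listed, among them Pdgfra, Dcn and Col1a1, summed to 1327, 1650 and 1406 CPM in wildtype muscle, to 1238, 1658 and 3155 CPM in mdx vehicle, and to 3556, 2405 and 3615 CPM in GTx-026 muscle. In GTx-026 against wildtype 14 of 14 were above 0, with a median of 0.94 and 1 past the threshold. The medians were 0.55 in mdx vehicle against wildtype, with 12 of 14 above 0, and 0.52 in GTx-026 against mdx vehicle, with 11 of 14 above 0. In mdx vehicle library 1 the fibroblast sum was the lowest of the 9 libraries, while C3 was at its highest there. Of the 14 markers only Gsn was below the wildtype range in that library, at 364 CPM against 561 to 712 CPM. Every other marker was inside or above that range, so the low sum rested on Gsn. Their part in the differences of C1ra, C3, C4b and Serping1 was not tested.

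Lymphocyte markers with rows, Cd8a and Cd52, 2 of 12 listed, were highest in wildtype library 1, mdx vehicle library 1 and GTx-026 library 2 of their groups. They summed to 50.9, 8.51 and 4.00 CPM in wildtype muscle, 148, 5.60 and 9.47 CPM in mdx vehicle, and 6.97, 35.9 and 7.82 CPM in GTx-026 muscle. The first 2 of those libraries also had the highest C3 of their groups and the only C3 to Serping1 ratios above 1. GTx-026 library 2 had neither, but its ratio, 0.820, was the highest of its group, against 0.444 and 0.436. The part of these cells in the C3 values was not tested. Adipocyte markers, 5 of 7 listed, ranged from 258 to 1479 CPM with no order by group. Of 7 neutrophil markers, Cxcr2 alone had a row, at 7.82 to 15.2 CPM.

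**Figure D3:**
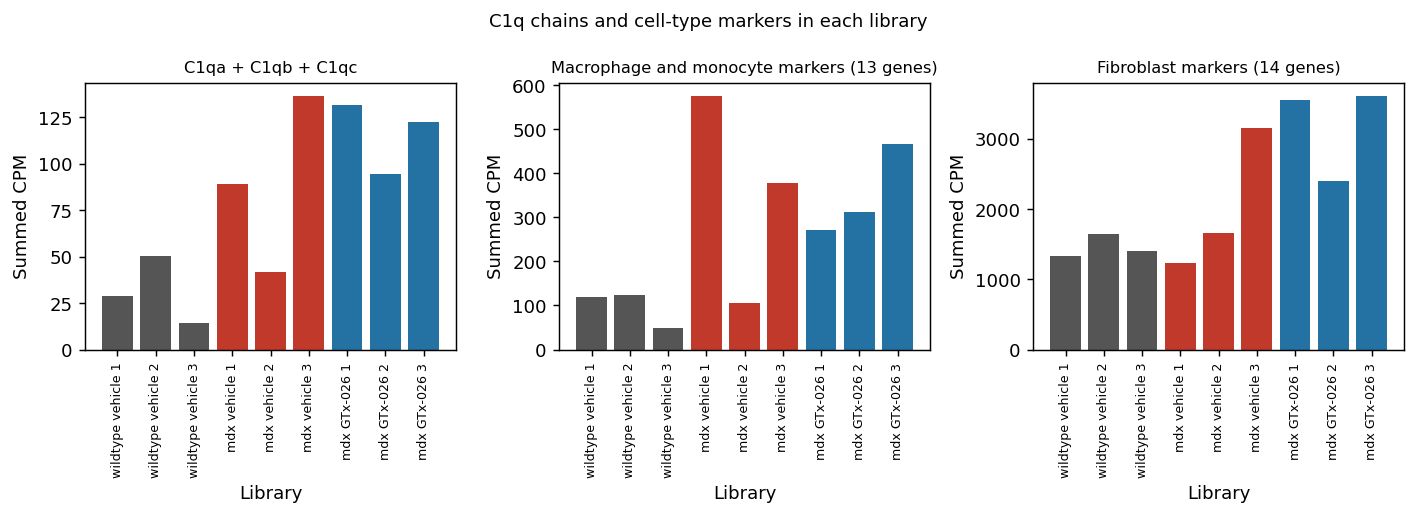
Summed CPM in each library of the C1q chain genes (left), 13 macrophage and monocyte markers (middle) and 14 fibroblast markers (right), with grey, red and blue bars for wildtype vehicle, mdx vehicle and mdx GTx-026. Mdx vehicle library 2 is at or near the wildtype level in all panels, with 41.9 CPM of C1q, while mdx vehicle library 1 is highest in macrophage markers, at 576 CPM, but not in C1q.

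Over 10343 genes with a mean of at least 5 CPM, those most like the mean log2(CPM + 1) of the C1q chains over the 9 libraries were Csf1r (Pearson r 0.98, Spearman rho 0.90), the receptor for the macrophage growth factor CSF1, Numbl (0.97, 0.97), the chemokine gene Ccl9 (0.97, 0.92), C1s1 (0.96, 0.95) and Trp53bp1 (0.95, 0.90). Csf1r had group means of 8.08, 20.7 and 27.7 CPM in wildtype muscle, mdx vehicle and GTx-026 muscle. Leaving out wildtype libraries 3 and 1, the farthest from the median, gave an r of 0.96 for Csf1r and 0.92 for Ccl9.

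For the mean of C1ra, C3, C4b and Serping1, the genes most like it were Trp53bp1 (r 0.97), Csf1r (0.96), Colq (0.96), Fcer1g (0.94) and Lyz2 (0.94). Without wildtype library 3 and mdx vehicle library 2 these r were 0.92, 0.97, 0.88, 0.87 and 0.88. The 9 libraries share 3 groups, and these correlations are the highest picked from many, so they describe likeness in these libraries only.

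The wider complement system was followed in 62 genes on 7 lists, of which 34 were tested, the 7 genes above included. Over the other 27, the median log2 fold change was 0.31 in mdx vehicle against wildtype, 0.08 in GTx-026 against mdx vehicle and 0.29 in GTx-026 against wildtype. Of those 27, none passed the threshold in the first comparison, none in the second and 1 in the third. In the first, Cd55 passed with no filter (adjusted p = 0.0427), where 332 of all genes passed in place of 75. Its unadjusted p in limma was nearly the same, at 0.00086 with no filter and 0.00088 with the filter. C3ar1 passed without mdx vehicle library 2 (adjusted p = 0.0366). At an unadjusted p under 0.05, 6 were higher and 1 lower in mdx vehicle against wildtype, where 6.49% of all genes were higher. None was higher or lower in GTx-026 against mdx vehicle, and 9 were higher in GTx-026 against wildtype, where 7.55% of all genes were.

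The gene that passed was C5ar1, the receptor for the anaphylatoxin C5a, on myeloid cells. It had 1.49, 2.26 and 1.09 CPM in wildtype muscle, 2.88, 2.80 and 3.83 CPM in mdx vehicle, and 4.10, 3.42 and 4.36 CPM in GTx-026 muscle. Neither mdx group overlapped wildtype. It rose by 0.94 (SE 0.19, adjusted p = 0.0433) in GTx-026 against wildtype, a call that did not hold without wildtype libraries 1 or 3, mdx vehicle library 2 or any GTx-026 library, or with the highest record of each gene alone, with an adjusted p of up to 0.182. C3ar1, the receptor for C3a, named after its values were seen, had 1.46, 3.08 and 1.27 CPM in wildtype muscle, 12.8, 4.16 and 9.14 CPM in mdx vehicle, and 7.32, 7.00 and 12.1 CPM in GTx-026 muscle. Its log2 fold changes against wildtype were 1.66 (SE 0.38, adjusted p = 0.125) for mdx vehicle and 1.75 (SE 0.38, adjusted p = 0.0546) for GTx-026. The latter passed in 6 of the alternatives, with a pseudocount of 0.5, no filter, a mean of at least 1 CPM, the compared groups only, or without mdx vehicle library 1 or 2, with adjusted p-values from 0.0199 to 0.0494 there.

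Among the other receptors and binding proteins, Lrp1, a clearance receptor, stood at 0.71 (adjusted p = 0.275) in mdx vehicle and 0.93 (adjusted p = 0.101) in GTx-026, both against wildtype. C1qbp, a mainly mitochondrial protein first found as a binder of C1q, stood at -0.45 (adjusted p = 0.249) and -0.30 (adjusted p = 0.419). Cd93, a receptor on endothelial and myeloid cells, stood at -0.15 (adjusted p = 0.849) and 0.09 (adjusted p = 0.954).

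Membrane regulators protect host cells from complement. Cd55, decay-accelerating factor, had 86.4, 87.3 and 83.1 CPM in wildtype muscle, 173, 149 and 127 CPM in mdx vehicle, and 137, 119 and 94.5 CPM in GTx-026 muscle. Every mdx library of either treatment was above every wildtype library. The log2 fold change in mdx vehicle against wildtype was 0.79 (SE 0.17, adjusted p = 0.0965), and that of GTx-026 against mdx vehicle was -0.36 with a 95% interval from -0.73 to 0.01. Cd59a, which blocks the membrane attack complex, and Cr1l, a mouse regulator of C3 splitting, stood at 0.01 and 0.11 in mdx vehicle against wildtype.

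Of the soluble regulators, Clu, or clusterin, stood at 0.45 (SE 0.59) in mdx vehicle against wildtype, and Vtn, or vitronectin, at -0.13 (SE 0.19). In the alternative pathway, Cfd, the adipocyte protease factor D, ranged from 2.80 to 865 CPM, with its highest value in wildtype library 1, and Cfp, properdin, had group means of 7.58 ± 2.59, 9.97 ± 2.76 and 12.6 ± 2.04 CPM (SD, n = 3 each) in wildtype, mdx vehicle and GTx-026 muscle. In the lectin pathway, 2 of 9 genes were tested, Colec12 at 0.28 (SE 0.19) and Masp1 at -0.09 (SE 0.32) in mdx vehicle against wildtype. Of 8 terminal components, C8g alone was tested, at 1.45 to 2.76 CPM in all libraries. The classical list, with 9 of 10 genes tested, had 9 above 0 in each of the 3 comparisons, but its members include 5 of the 7 genes already described.

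**Figure D4:**
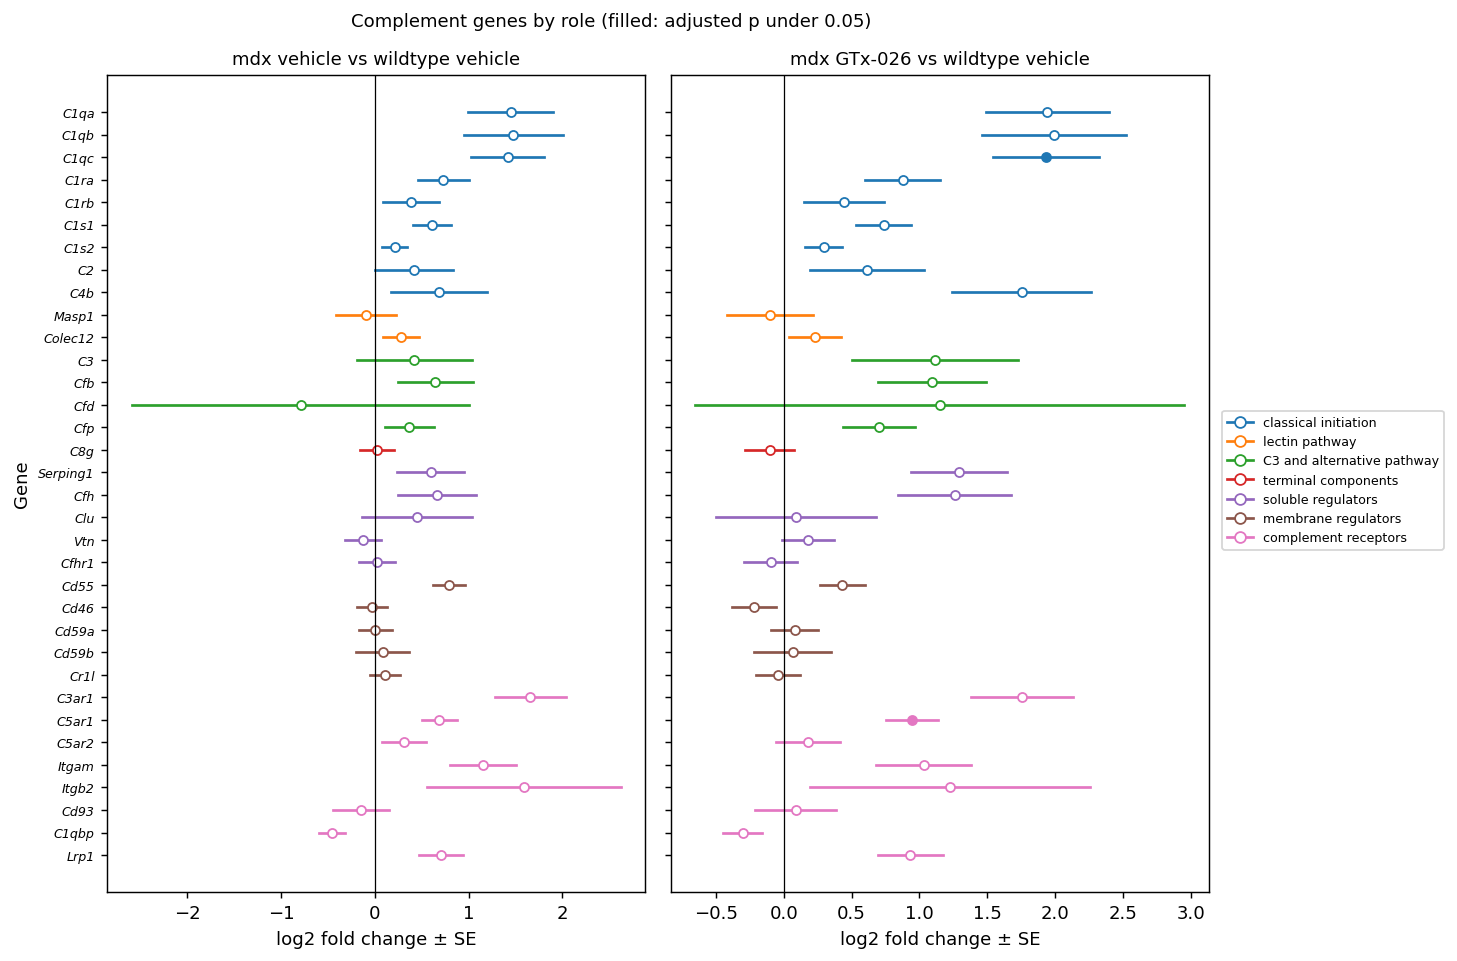
Log2 fold change ± SE of the 34 complement genes tested, coloured by role, for mdx vehicle (left) and mdx GTx-026 (right) against wildtype vehicle; the horizontal scales of the panels differ. Filled points mark an adjusted p under 0.05 and are C1qc and C5ar1, both in the right panel.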

How the data were processed

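Per the labels' protocols, polyadenylated RNA was sequenced on an Ion Torrent Proton. Per the submitters' processing notes, the tools were HTSeq 0.6.1p1, DESeq2 1.6.3, Bowtie2 2.2.4, TopHat2 2.0.13 and SAMtools 0.1.19 and the build GRCm38.p3, with no role or order given. The authors deposited 46442 sequence records with a signal per library (scaled read numbers), a ratio of group means as a fold, and an unadjusted p-value per comparison. Within 0.1 read, 100% of signals below 10000 were whole multiples of a step that differed by library, but the smallest signal above 0 was 10, so scaled values rather than counts were tested. Records at 0 in 1 library were at 0 in all 3 of its group. Left out were 4 records with no symbol, 0.000646% of the total.

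From these, records were summed per symbol and divided by library totals and by a trimmed mean of log ratios (30% of ratios and 5% of levels trimmed from each end). Symbols above 0 in all 9 libraries were tested with limma 3.58.1 in R 4.3.3 on log2(CPM + 1), with all 9 libraries in 1 model, group as the only term and a trended prior, 2-sided, with Benjamini-Hochberg adjustment. The script was tested on simulated data. Alternatives were other pseudocounts (0.5 and 5), filters, scalings, records, samples and priors, and each library left out. Named were the 7 genes, complement list genes that passed or were the 3 highest of their list, near copies, and the 5 genes of most like pattern. Other genes are said to be chosen after their values were seen or are markers. Genes, lists and tests were chosen with earlier results of these data known. Positions are from GENCODE M21 and promoters from RefSeq. The ratios of the authors' deposited table were not used.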

Additional observations from a re-analysis of the deposited data

How the results depend on the processing

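Of 402 recomputed log2 fold changes of the 7 genes, 389 kept their direction and their side of the threshold, 6 lost the call, 4 gained one and 3 reversed. Reversed were C3 in mdx vehicle against wildtype without wildtype library 3 (-0.13) or mdx vehicle library 1 (-0.15; range with a library left out -0.15 to 1.08), and C1ra in GTx-026 against mdx vehicle without mdx vehicle library 2 (-0.092; range -0.092 to 0.28). Genes of the 7 past the threshold in GTx-026 against wildtype numbered 3 rather than 1 when only the compared groups were fitted, and 0 to 3 with a library left out. In the other comparisons the count was 0 under every alternative run. Among all genes, mdx vehicle against wildtype gave 75 calls (1981 at an unadjusted p under 0.05), but 332 with no filter, 113 at a mean of at least 1 CPM, 48 with the highest record only, 17 with the compared groups only, and 9 to 102 with a library left out. With records above 0 in all 9 libraries only, it gave 52. GTx-026 against mdx vehicle gave 2 (494 unadjusted), but 1 with a pseudocount of 5 or the compared groups only, 4 with library totals or the deposited scaling, 96 with no filter, and 0 to 2 with a library left out. GTx-026 against wildtype gave 253, split into 175 higher and 78 lower, but 509 with no filter, 451 with the compared groups only and 65 to 401 with a library left out; library totals gave 196 higher and 46 lower. The cause was not tested, beyond fewer samples or other genes tested. Adding C1rb to C1ra, chosen after seeing the data, gave 0.72, 0.14 and 0.86 in the 3 comparisons. No paired analysis was possible because the sample labels number the samples through the series, and the numbers in the table's column names could be tied to groups only. Depth limits C4b most.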
